A study of Mus musculus with 9 samples.

Results

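The 10 genes described here encode negative feedback regulators of the MAP kinase cascades, 6 dual-specificity phosphatases (Dusp1, Dusp2, Dusp4, Dusp5, Dusp6 and Dusp10), 2 Sprouty proteins (Spry1 and Spry2) and 2 SPRED proteins (Spred1 and Spred2). They were found by symbol and are 10 of 30783 named mouse genes. Where a gene has several probe sets, its probe set was selected on the highest mean level over the 9 arrays, but each of the 10 had only 1 and that mean decided nothing. Transcripts were measured on 9 whole-transcript arrays, 1 per mouse, in pmel1 CD8+ T cells, which carry a transgenic receptor for a peptide of the melanocyte protein gp100. Naive congenic mice received 2000000 such cells bearing the Thy1.1 marker, and then 100 µg of hgp100 peptide into a vein together with 400 µg of antibody. The anti-CD27 group of 3 mice was given 200 µg of the agonist antibody AT124 and 200 µg of isotype control antibody. The anti-PD-1/L1 group of 3 mice was given 100 µg of RMP1-14 against PD-1, 100 µg of 10F.9G2 against PD-L1 and 200 µg of isotype control. The combination group of 3 mice was given all of the active antibodies and no isotype control. All mice received cells and peptide, a group with peptide and isotype control alone was not analysed here, and the age and strain of the recipients were not given in the sources used here. On day 4 the transferred cells were sorted from the spleen of each mouse to over 99% purity, and RNA was taken from at least 400000 cells.

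MAP kinases are activated by phosphorylation of a threonine and a tyrosine, and dual-specificity phosphatases remove both phosphates. Several of these phosphatases are themselves induced by the kinases they switch off, which makes their transcripts a commonly used readout of recent MAP kinase activity. Sprouty and SPRED proteins act further upstream and restrain the Ras and Raf step that leads to the kinase ERK. In T cells, the antigen receptor and costimulatory receptors activate these cascades through Ras.

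The arrays of the anti-PD-1/L1 group stood apart from the other 6 before any gene was considered. Values are log2 levels made by the authors with RMA, which corrects for background, brings arrays to a common scale and combines the probes of a probe set into 1 value. Background control probe sets averaged 4.06 ± 0.08 (SD, n = 3) on these arrays, while anti-CD27 had 3.27 ± 0.06 and the combination 3.25 ± 0.04. Positive control probe sets averaged 5.75 ± 0.19, 6.70 ± 0.02 and 6.81 ± 0.04 in the same order. The median difference over all genes was -0.26 in both comparisons with anti-PD-1/L1 and -0.0032 between the combination and anti-CD27. Comparisons with anti-PD-1/L1 are therefore given with the values after quantile normalization, which moved those medians to -0.03. The 23 background control probe sets are binned by the GC content of their probes, and their 95th percentile, which the GC-rich bins set, was 6.83 on the combination arrays, 6.94 for anti-CD27 and as high as 8.27 for anti-PD-1/L1. On all 9 arrays 87.3% of genes lay under that level. Dusp1 in anti-CD27 and the combination and Dusp2 in anti-CD27 were above it on every array, Dusp5 was above it on some arrays of the combination and Dusp6 on some of anti-CD27, and all other members lay under it on every array. Against the mean of the background controls, Spry2 was under it on 2 of 3 arrays in every group and Spred1 on 3 of 3 anti-PD-1/L1 arrays, and the other members were above it on every array. Differences of members under the background level can be understated, and a fold is printed only for genes above it in at least 1 of the groups compared. Of 7 defining T cell genes, 0 were under that level on every array of anti-CD27 or of the combination and 1 was in anti-PD-1/L1, and Cd8b1, a chain of the sorted CD8 marker, was the highest. Cd8b1 averaged 9.997 for anti-PD-1/L1, 11.84 for anti-CD27 and 11.72 for the combination. Each comparison with anti-PD-1/L1 called 5 of these 7 genes lower for anti-PD-1/L1 and 1, Cd3d, higher. The median difference of the 7 from anti-PD-1/L1 was 1.03 for anti-CD27 and 0.978 for the combination. Between those 2 groups, 0 of the 7 were called. The part of this shift in the member differences was not tested. Markers of natural killer cells, dendritic cells, neutrophils, macrophages and platelets, and Cd4, were under the background level on every array, and Itgam, a macrophage integrin among them, was called higher in the combination than in anti-CD27 (4.36 against 3.75).

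Setting the combination against anti-CD27 shows how feedback genes differed when the checkpoint pair was blocked as well. Of the 10 feedback genes, 3 fell in the combination, 0 rose and 7 did not pass the threshold of an adjusted p under 0.05. Over all genes, 1.78% were called in this comparison, 1.26% higher and 0.52% lower. The members were chosen with earlier results of these data known, so setting their count beside these shares is a description and no test. The 3 that fell were Dusp1 by 0.94 ± 0.16 on the log2 scale (± SE, a 1.91-fold difference), Dusp2 by 0.83 ± 0.12 and Spry1 by 0.52 ± 0.10. Less RNA per cell and fewer cells holding the transcript cannot be told apart in these bulk samples.

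**Figure D1:**
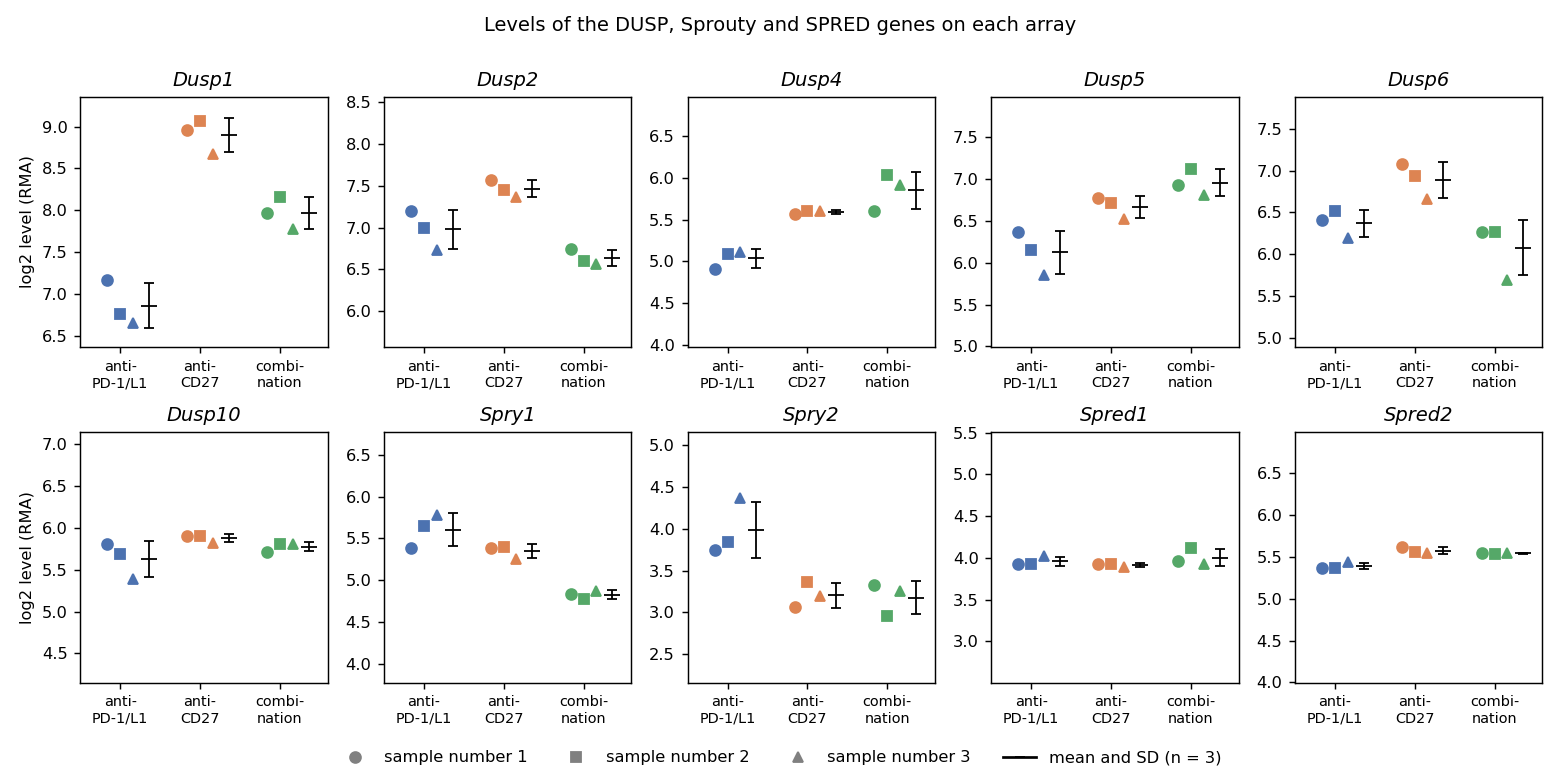
Log2 level (RMA) of each of the 10 genes on each array, in 3 groups of 3 mice. Every vertical axis spans 3 log2 units, markers show the sample number in the titles, and the black bar is the mean with its SD. Dusp1 on the anti-CD27 arrays (8.67 to 9.07) lay above all combination arrays (7.77 to 8.16), and the Spred2 levels stayed within 5.37 to 5.63 on all 9 arrays.

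Dusp1 encodes a nuclear phosphatase that acts on p38, JNK and ERK and is induced within minutes of many stimuli. Its log2 levels were 8.97, 9.07 and 8.67 on the anti-CD27 arrays and 7.96, 8.16 and 7.77 on the combination arrays. The highest combination array was below the lowest anti-CD27 array. The difference of -0.94 had an adjusted p of 0.0254 and a 95% interval of -1.30 to -0.57. It did not pass when anti-CD27 replicate 1 or 2 or any 1 of the 3 combination replicates was left out, with adjusted p-values between 0.0579 and 0.131 and differences between -1.03 and -0.84. Among markers of other cell types, Ighm, the heavy chain of IgM, moved with Dusp1. It was at 8.25 in anti-PD-1/L1, 8.99 in the combination and 9.48 in anti-CD27. The summed level of the 5 measured B cell markers spanned 8.35 to 8.94, 9.07 to 9.23 and 9.59 to 9.66 on their arrays. That sum is mainly Ighm. The other 4 markers, Ms4a1, Cd79a, Cd79b and Pax5, were under the background level on every array. None of the 5 was called between the combination and anti-CD27. Against anti-PD-1/L1, Ighm was called higher in both other groups, while Ms4a1, Cd79a and Pax5 were called lower in both. The part of Ighm in the Dusp1 result was not tested.

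Dusp2 encodes a nuclear phosphatase of ERK and p38 that was first described in activated lymphocytes. It stood at 7.57, 7.46 and 7.37 on the anti-CD27 arrays and at 6.75, 6.60 and 6.56 on the combination arrays. The groups did not overlap, and the spread within each (SD 0.10 in both) was well below the difference. The difference of -0.83 had an adjusted p of 0.0104 and an interval of -1.09 to -0.56. Set against the background level of the combination arrays, under which all 3 combination values lay, the anti-CD27 mean was at least 1.55-fold higher. This bound is taken from means and leaves out their sampling error. Dusp2 did not pass without anti-CD27 replicate 1 or 2, or without combination replicate 2 or 3 (adjusted p between 0.0535 and 0.0629).

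Dusp5, a nuclear phosphatase specific for ERK, and Dusp4, a nuclear phosphatase close in sequence to Dusp1, did not share that direction. Dusp5 was at 6.77, 6.71 and 6.52 in anti-CD27 and at 6.93, 7.13 and 6.81 in the combination. All combination arrays were higher, by 0.29 ± 0.14, and the difference did not pass (adjusted p = 0.594, interval -0.03 to 0.60). Dusp4 was at 5.56, 5.60 and 5.60 in anti-CD27 and at 5.60, 6.03 and 5.91 in the combination. The groups touched, with combination replicate 1 at the level of the anti-CD27 arrays, and the difference of 0.26 ± 0.11 did not pass (adjusted p = 0.456, interval 0.02 to 0.51). The intervals of Dusp4 and Dusp5 did not overlap those of Dusp1 and Dusp2.

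Since Dusp1 and Dusp2 fell while the inducible phosphatase Dusp5 did not, the 250 bases upstream of the start sites of these 3 are shown; theirs were also the member windows that held any of the motifs searched. Sequences are those of RefSeq on build GRCm38.p6, written 5′ to 3′ in the direction of transcription, with matches in capitals on either strand. The searched motifs were the cAMP response element TGACGTCA, the AP-1 site TGANTCA, the EGR site GCGNGGGCG, the ETS site CCGGAAG and the CArG box that binds serum response factor. A sequence was found for 9 of the 10 members.
Dusp1 promoter, chr17:26508473-26508722 (- strand): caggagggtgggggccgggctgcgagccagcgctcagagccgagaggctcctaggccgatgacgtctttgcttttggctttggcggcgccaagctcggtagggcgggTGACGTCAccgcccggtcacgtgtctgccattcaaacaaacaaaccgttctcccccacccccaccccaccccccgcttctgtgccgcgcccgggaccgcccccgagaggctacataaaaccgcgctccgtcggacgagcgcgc
Dusp2 promoter, chr2:127335909-127336158 (+ strand): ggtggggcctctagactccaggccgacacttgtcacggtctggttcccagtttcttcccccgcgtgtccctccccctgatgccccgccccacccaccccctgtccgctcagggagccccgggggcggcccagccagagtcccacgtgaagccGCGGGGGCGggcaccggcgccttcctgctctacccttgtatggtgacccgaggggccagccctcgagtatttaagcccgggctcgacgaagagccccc
Dusp5 promoter, chr19:53528895-53529144 (+ strand): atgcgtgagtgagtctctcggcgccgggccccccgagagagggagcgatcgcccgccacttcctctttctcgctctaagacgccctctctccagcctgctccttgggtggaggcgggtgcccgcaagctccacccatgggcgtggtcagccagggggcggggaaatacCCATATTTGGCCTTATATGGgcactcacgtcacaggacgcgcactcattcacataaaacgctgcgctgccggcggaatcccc
The Dusp1 window held 1 cAMP response element, from base 108 to base 115 of the window, a motif present in 1.55% of 32851 such windows. The Dusp2 window held 1 EGR site (4.7% of windows). The Dusp5 window held 2 adjoining CArG boxes, which follow each other from base 169 to base 188, while 1.47% of windows held at least 1. Each of the other 6 members with a sequence, Dusp6, Dusp10, Spry1, Spry2, Spred1 and Spred2, held none of the motifs, and the AP-1 and ETS sites, present in 6.75% and 6.91% of windows, were in no member's window. A match is a stretch of letters and does not show that a factor binds there.

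Dusp6 encodes the cytoplasmic phosphatase of ERK, whose transcript depends closely on ERK activity in many cell types. Its levels were 7.08, 6.93 and 6.66 in anti-CD27 and 6.27, 6.26 and 5.69 in the combination. The groups did not overlap, and combination replicate 3 lay below the other combination arrays. The difference of -0.81 ± 0.17 was nearly as large as that of Dusp2 but did not pass (adjusted p = 0.0614, interval -1.21 to -0.42), with an SD in the combination of 0.33 against 0.10 for Dusp2. It passed under 4 of 18 alternatives, among them once the 50% of genes lowest in mean level were removed (adjusted p = 0.0347), after quantile normalization (adjusted p = 0.0445) and with array weights (adjusted p = 0.0164). Dusp10, a phosphatase of JNK and p38, was at 5.91, 5.90 and 5.82 in anti-CD27 and at 5.72, 5.81 and 5.81 in the combination. The combination arrays were all slightly lower, by 0.10 ± 0.10, and the difference did not pass (adjusted p = 1, interval -0.33 to 0.12).

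Spry1, a Sprouty protein that restrains Ras and ERK signalling below the T cell receptor, was at 5.39, 5.40 and 5.25 in anti-CD27 and at 4.84, 4.77 and 4.87 in the combination. The groups did not overlap, and the difference of -0.52 ± 0.10 had an adjusted p of 0.0361 and an interval of -0.74 to -0.30. This was the least stable of the 3 calls. It did not pass after quantile normalization (adjusted p = 0.135), over all transcript probe sets (adjusted p = 0.0688), or without any 1 anti-CD27 or combination replicate, or anti-PD-1/L1 replicate 2 (adjusted p between 0.0604 and 0.168). Spry2, a related Sprouty protein, was near the background controls at 3.06, 3.36 and 3.19 in anti-CD27 and 3.32, 2.95 and 3.26 in the combination. These overlapped, with a difference of -0.03 ± 0.17 (adjusted p = 1, interval -0.41 to 0.36). Spred1 and Spred2, which bring the Ras inhibitor neurofibromin to the membrane, differed by 0.09 ± 0.06 (adjusted p = 0.919, interval -0.06 to 0.23) and -0.03 ± 0.05 (adjusted p = 1, interval -0.14 to 0.08). Spred1 was at 3.93, 3.93 and 3.89 in anti-CD27 and 3.96, 4.12 and 3.93 in the combination, and 5 of the 9 arrays carried an identical value. Of all genes, 8.69% had a value shared by 5 or more arrays. Spred2 was at 5.63, 5.56 and 5.55 in anti-CD27 and at 5.54 on each combination array.

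Counting arrays alone, 7 of the 10 members did not overlap between the combination and anti-CD27, 6 lower and 1 higher, where 20.5% of all genes did not overlap. The median difference of the members was -0.067, beside -0.0032 for all genes. Because the members were chosen with earlier results of these data known, this too is a description. In data simulated with the array spread of this comparison, the test called 86% of 50 genes changed by 2-fold, 60% of 50 changed by 1.5-fold and 18% of 50 changed by 1.2-fold. Most simulated differences about as small as those of Dusp4 and Dusp5 were thus missed. The changed genes were drawn at random from all genes, so these shares need not hold for the members.

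**Figure D2:**
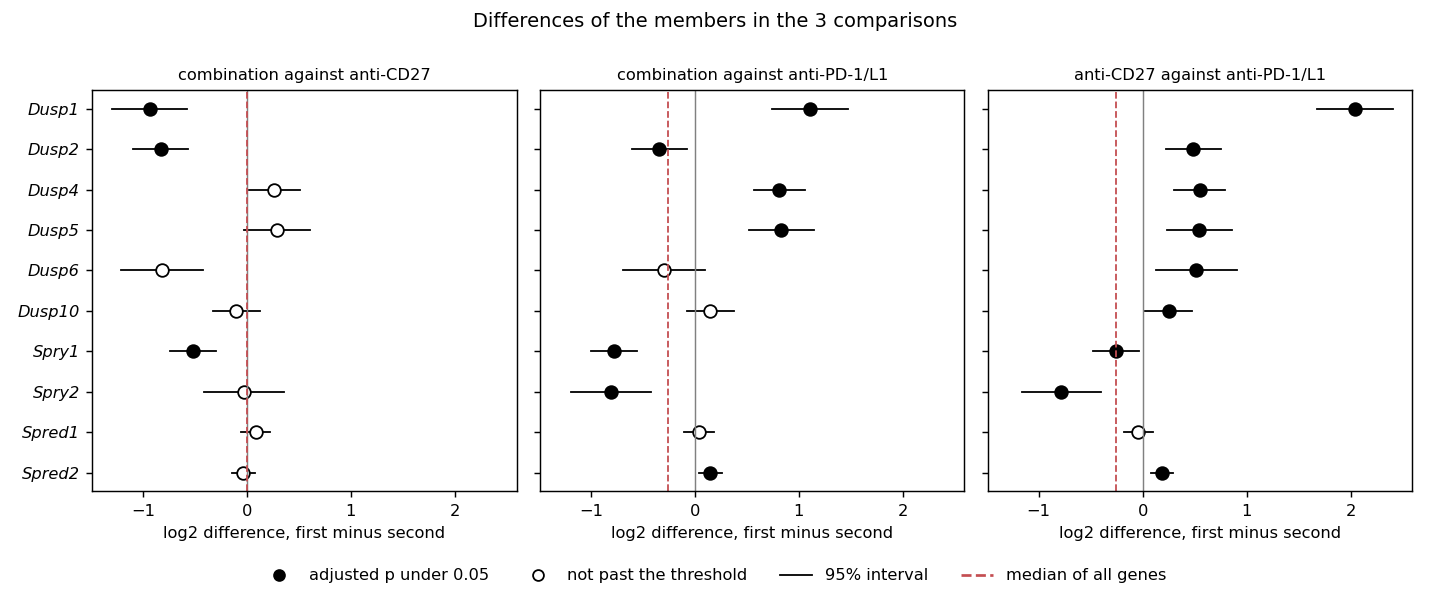
Log2 difference of each gene with its 95% interval in the 3 comparisons, where filled circles passed an adjusted p of 0.05 and open circles did not. The dashed line is the median of all genes, at -0.0032 in the left panel and -0.26 in the others. Dusp1 has the largest difference in each panel, from -0.94 against anti-CD27 to 2.04 in the right panel.

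Genes around these feedback regulators in the same cascades were counted from 6 lists, of which 69 of 78 genes had a probe set naming them alone. In the combination against anti-CD27, limma called 0 of the 69, beside 1.78% of all genes. An unadjusted p under 0.05 was found for 7 of the 69 and for 9.68% of all genes, a like share. None of 14 other dual-specificity phosphatases (median 0.012) and none of the other 3 Sprouty and SPRED genes (median 0.0068) passed. None of 12 genes of the Ras and ERK cascade (median 0.013), 10 of the JNK and p38 cascades (median 0.016) and 13 other brakes on Ras and ERK (median -0.017) passed. The smallest adjusted p-values were those of Rasal3, a Ras GTPase-activating protein of blood cells, at -0.40 ± 0.10 (adjusted p = 0.116), and Ptpn7, a tyrosine phosphatase of ERK and p38 in blood cells, at -0.24 ± 0.06 (adjusted p = 0.137). Both passed as lower after quantile normalization. Among 17 transcripts known to respond to ERK, such as the transcription factors Fos, Egr2 and Myc, none passed (median -0.020). Egr2 differed by -0.18 ± 0.06 (adjusted p = 0.279) and Myc by 0.22 ± 0.09 (adjusted p = 0.415). With only the 6 arrays compared, Ptpn7 passed as lower and Mapkapk2, a kinase below p38, as higher.

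**Figure D3:**
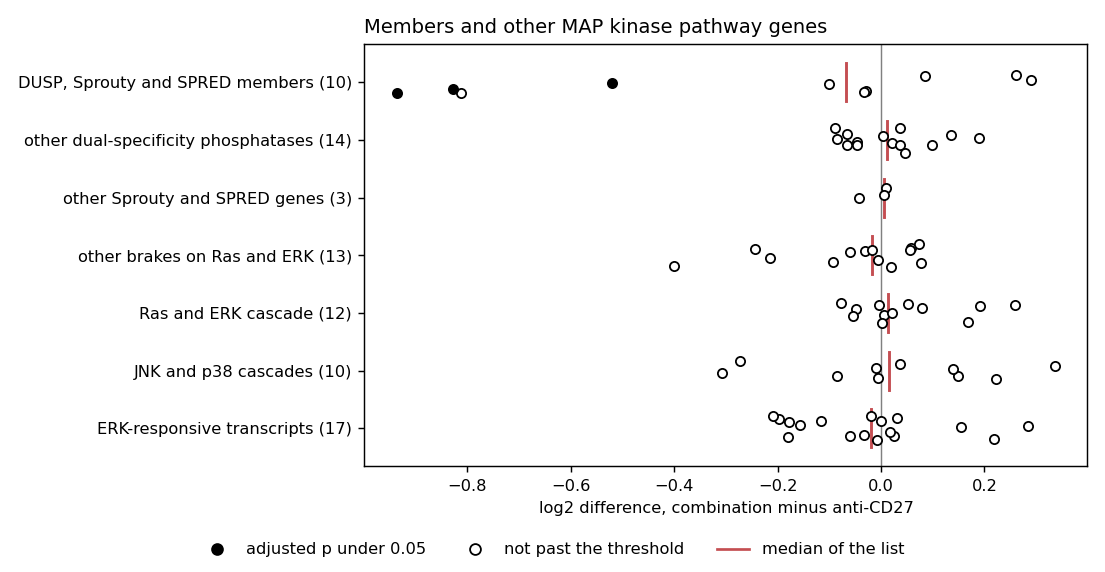
Log2 difference of the combination minus anti-CD27 for each member and for each gene of the 6 pathway lists, with the number of genes in brackets, the median as a red line and a random vertical offset. Filled circles passed an adjusted p of 0.05, which 3 members and 0 of 69 list genes did, and only Dusp1, Dusp2, Dusp6 and Spry1 lie below -0.5.

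The comparison of anti-CD27 with anti-PD-1/L1 sets the single treatments side by side, and here the arrays themselves differed as described above. Of the 10 members, 7 were higher in anti-CD27, 2 were lower and 1 did not pass, while 70.8% of all genes were called, 17.1% higher and 53.6% lower. With shares that high, the number of members called says little about them. Dusp1 had the largest difference of the members, 2.04 ± 0.16 (adjusted p = 1.3e-05). After quantile normalization 4 of the 10 members passed, Dusp1, Dusp4 and Spred1 as higher and Spry1 as lower, while 50.3% of all genes were called, 23.3% higher and 26.9% lower.

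On the anti-PD-1/L1 arrays Dusp1 was at 7.16, 6.76 and 6.65, below all arrays of the other groups. The order was anti-CD27, combination, anti-PD-1/L1, with no overlap between neighbours. Against the background level of the anti-PD-1/L1 arrays, anti-CD27 was at least 1.54-fold higher, and after quantile normalization the difference was 1.76 ± 0.14 (adjusted p = 1.03e-05). The Dusp1 mean of the combination (7.965) and the Dusp2 mean of anti-CD27 (7.465) lay under that background level (8.274). No least fold against anti-PD-1/L1 can be given for them. Dusp4, at 4.91, 5.09 and 5.12 on the anti-PD-1/L1 arrays, was lower there than on every other array. Anti-CD27 exceeded it by 0.55 ± 0.11 (adjusted p = 0.00178), and by 0.50 ± 0.11 after quantile normalization (adjusted p = 0.00508). Dusp2 was at 7.20, 6.9985 and 6.73, Dusp5 at 6.37, 6.15 and 5.85 and Dusp6 at 6.40, 6.52 and 6.20 on the anti-PD-1/L1 arrays. All 3 were lower there than on every anti-CD27 array, while Dusp2 and Dusp6 overlapped the combination arrays and Dusp5 lay below them. For Dusp2 (0.49 ± 0.12, adjusted p = 0.00496), Dusp5 (0.54 ± 0.14, adjusted p = 0.00707) and Dusp6 (0.52 ± 0.17, adjusted p = 0.0251), quantile normalization left 0.09, 0.18 and 0.13, none of which passed. The call of Dusp6 was also lost without anti-PD-1/L1 replicate 1 or 3, or anti-CD27 replicate 1 or 2 (adjusted p between 0.0503 and 0.0885). Dusp10, at 5.81, 5.69 and 5.39 in anti-PD-1/L1, differed by 0.25 ± 0.10 (adjusted p = 0.0484) and by -0.0071 after quantile normalization, so that its direction turned. It passed without anti-PD-1/L1 replicate 1 and did not pass without any other single array (adjusted p between 0.0618 and 0.117).

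Spry1 was at 5.39, 5.64 and 5.78 on the anti-PD-1/L1 arrays, where anti-CD27 replicates 1 and 2 lay at the level of the lowest. The difference of anti-CD27 from anti-PD-1/L1 was -0.26 ± 0.10 (adjusted p = 0.0379) and -0.47 ± 0.13 after quantile normalization (adjusted p = 0.0125). The reported call was lost without any 1 replicate other than replicate 1 of anti-PD-1/L1, with adjusted p-values up to 0.124 over all alternatives. Spry2 was at 3.75, 3.84 and 4.37 in anti-PD-1/L1, above all other arrays, and anti-CD27 was lower by 0.78 ± 0.17 (adjusted p = 0.00301). The background controls moved in the same direction, with a difference of -0.79, and with quantile normalization the call of Spry2 was lost (adjusted p = 0.0629). Spred2, at 5.37, 5.37 and 5.44 in anti-PD-1/L1, differed by 0.18 ± 0.05 (adjusted p = 0.00804), or 0.011 after quantile normalization (adjusted p = 0.895). Spred1, at 3.93, 3.93 and 4.02, differed by -0.04 ± 0.06 (adjusted p = 0.538) and, after quantile normalization, by 0.31 ± 0.06 in the opposite direction (adjusted p = 0.00321). Its 3 anti-PD-1/L1 values lay under the mean of the background controls.

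The comparison of the combination with anti-PD-1/L1 asks what CD27 agonism added to blockade, and it shares its arrays with both comparisons above. Of the 10 members, 4 were higher in the combination, 3 were lower and 3 did not pass, while 72.3% of all genes were called, 19% higher and 53.3% lower. Dusp1 (1.11 ± 0.16), Dusp5 (0.83 ± 0.14), Dusp4 (0.81 ± 0.11) and Spred2 (0.15 ± 0.05) were higher. Spry2 (-0.81 ± 0.17), Spry1 (-0.78 ± 0.10) and Dusp2 (-0.34 ± 0.12) were lower. The adjusted p-values of these 7 ran from 0.000119 to 0.0257, the latter for Dusp2, whose arrays overlapped. Dusp2 did not pass without anti-PD-1/L1 replicate 1 or 2 or combination replicate 2 or 3 (adjusted p between 0.0636 and 0.0795), and Spred2 did not without combination replicate 1 or 2 (0.0515 and 0.0502). With the mean of the positive controls as a covariate, Dusp2 was the 1 member called, beside 1926 of all 30783 genes. Of the variance of that covariate, 96.5% lay between the groups. With the covariate Dusp1 was at -0.46 ± 0.58 (adjusted p = 0.673), so that this fit gave it no clear direction.

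After quantile normalization 4 of the 10 members were higher and 3 lower, while 51.9% of all genes were called, 24% higher and 27.9% lower. Dusp1 remained higher by 0.64 ± 0.14 (adjusted p = 0.00406), Dusp4 by 0.69 ± 0.11 (adjusted p = 0.000705) and Dusp5 by 0.38 ± 0.12 (adjusted p = 0.0288). Spry1 was lower, with a difference of -0.95 ± 0.13 (adjusted p = 0.000208), as were Dusp2 at -0.82 ± 0.09 (adjusted p = 7.15e-05) and Dusp6 at -0.72 ± 0.17 (adjusted p = 0.00573), where Dusp6 had not passed as deposited (-0.30 ± 0.17, adjusted p = 0.148). Without combination replicate 3 the deposited difference of Dusp6 was -0.11. The calls of Spry2 (adjusted p = 0.0544) and Spred2 (adjusted p = 0.428, direction turned) were lost. Spred1 became higher by 0.40 ± 0.06 (adjusted p = 0.000656), from 0.04 ± 0.06 as deposited (adjusted p = 0.551). Its 3 anti-PD-1/L1 arrays lay under the mean of the background controls. Dusp10 differed by 0.15 ± 0.10 (adjusted p = 0.199) as deposited, passed without anti-PD-1/L1 replicate 1 (adjusted p = 0.0413), fell to 0.028 without anti-PD-1/L1 replicate 3 (adjusted p = 0.68), and turned to -0.14 after quantile normalization. Arrays did not overlap for 6 of the 10 members here and for 8 of 10 between anti-CD27 and anti-PD-1/L1, beside 73.5% and 72.5% of all genes. The split of all calls moved from 26.3% higher as deposited to 46.3% after quantile normalization in this comparison and from 24.2% to 46.4% between the single treatments. In the combination against anti-CD27 it moved from 70.7% to 60.5%.

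Of the 69 surrounding pathway genes, 30 were higher and 22 lower in the combination than in anti-PD-1/L1, and 30 were higher and 23 lower in anti-CD27. In total these counts lie near the 72.3% and 70.8% of all genes called, but their split by direction differed. Of all genes, 19% were higher and 53.3% lower in the combination, and 17.1% higher and 53.6% lower in anti-CD27. The lists were chosen with earlier results of these data known, so this is a description. The values that follow are for the combination, with counts after quantile normalization in brackets. There 51.9% of all genes were called, 24% higher and 27.9% lower. All calls in the Ras and ERK cascade were higher, 10 of 12 genes with a median of 0.74, among them Rasgrp1, which activates Ras below the T cell receptor, by 2.39 ± 0.08. After quantile normalization 7 of the 12 were higher and 3 lower. With the positive controls as a covariate, 1926 of all 30783 genes were called, 900 higher and 1026 lower. In that fit 2 of these 12 were higher and 1 lower, and 1 of the 10 JNK and p38 genes and 2 of the 13 other brakes were higher. It called 0 of the ERK-responsive transcripts and 0 of the other dual-specificity phosphatases. In the JNK and p38 cascades 8 of 10 were higher and 1 lower (7 and 2), and among the other brakes on Ras and ERK 7 of 13 were higher and 3 lower (7 and 6), with Ptpn7 higher by 2.31 ± 0.06. The ERK-responsive transcripts had 3 of 17 higher and 9 lower (1 and 10), with Myc higher by 0.89 ± 0.09 and Etv4, an ETS factor induced by ERK, lower at -0.86 ± 0.06. Among the other dual-specificity phosphatases 2 of 14 were higher and 7 lower (3 and 6). Their lower calls included Dusp8, a JNK and p38 phosphatase, at -0.80 ± 0.08, and Dusp26 at -0.84 ± 0.09. Of the other 3 Sprouty and SPRED genes, Spry4 at -0.68 ± 0.21 (adjusted p = 0.0173) and Spred3 at -0.52 ± 0.08 (adjusted p = 0.000475) were lower as deposited. After quantile normalization 0 of the 3 were called, and with the covariate Spry4 was called higher.

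Only Dusp1 among the members had group means that spanned at least 1 log2 unit, and the genes most like it were ranked among 11657 genes by the root mean square difference of centred log2 levels over the 9 arrays. The nearest was Sntb1, which encodes a syntrophin of the membrane cytoskeleton, at 0.17, followed by Cd274, which encodes PD-L1, at 0.18 and Clk1, a kinase of splicing factors, at 0.20, where the median gene was at 0.86. Cd274 stood at 7.03 ± 0.01 (SD, n = 3), 6.39 ± 0.13 and 5.19 ± 0.26 in anti-CD27, combination and anti-PD-1/L1. In the combination against anti-CD27, Cd274 differed by -0.64, Clk1 by -0.77 and Sntb1 by -0.69. These genes were picked for their likeness to Dusp1 on the same arrays, which fixes the direction of these differences, so that they are a description and no test is given.

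**Figure D4:**
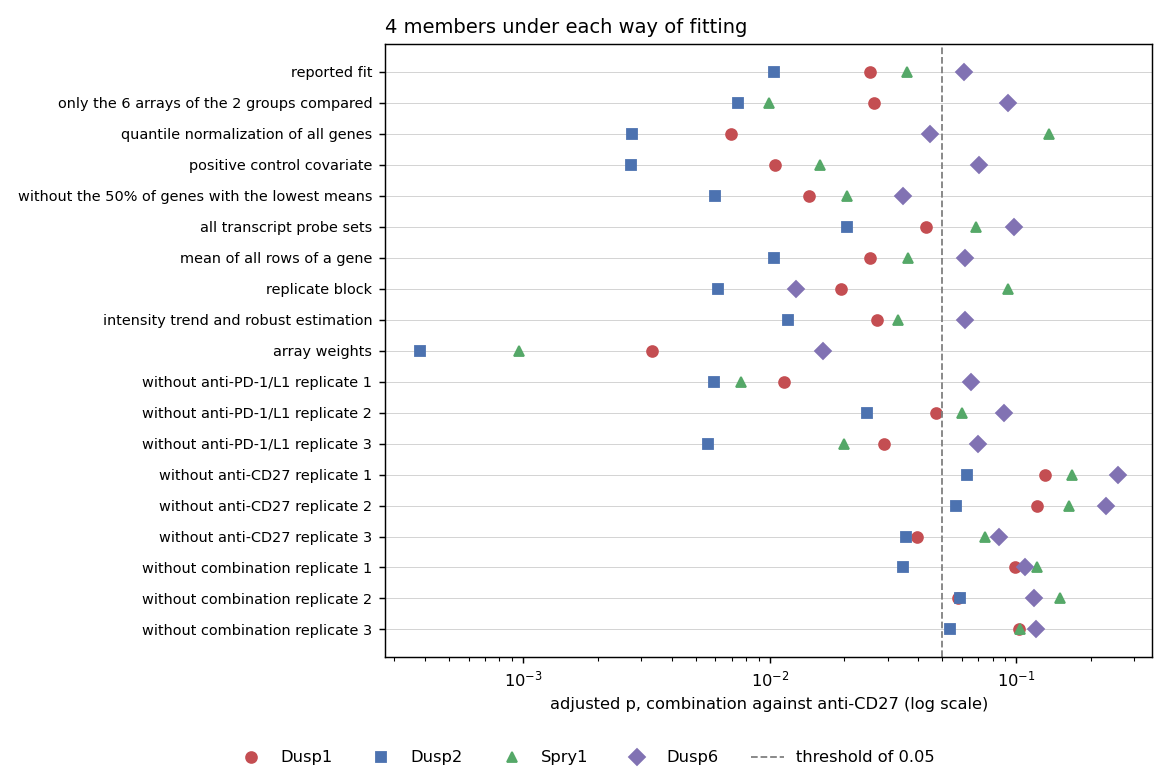
Adjusted p on a log axis of Dusp1, Dusp2, Spry1 and Dusp6 in the combination against anti-CD27, for the reported fit and 18 alternatives, with the threshold of 0.05 as a dashed line. Dusp2 passed under 14 of the 18, Dusp1 under 13, Spry1 under 8 and Dusp6 under 4.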

How the data were processed

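The deposited table holds RMA levels as log2 values for every probe set on every array. The submitters' processing notes name oligo 1.38.0 as the software. No genome build for the array design is given in the sources used here. Of 72688 probe sets, 6732 were controls and 31258 named 1 gene in the platform's annotation, with 827 symbols updated through the RefSeq mouse gene table. A gene's probe set with the highest mean was kept (366 genes had several), which left 30783 genes with no filter on low values. limma 3.58.1 in R 4.3.3 fitted 1 mean per group to all 9 arrays (6 residual degrees of freedom), and moderated two-sided tests were adjusted over all genes by the Benjamini-Hochberg method. The test was checked on simulated data. Arrays came from separate mice, and their number, 3 per group, limits the precision. Promoters were scanned in Python 3.11.15. The members and lists were chosen with earlier results of these data known. Named were all members, up to 3 called genes per list and comparison (fewer are printed), and the 3 genes most like a member whose group means spanned at least 1 log2 unit. Genes of lists that were not called in the first comparison were named after their values were seen. Alternatives were 6 arrays only, quantile normalization, a positive control covariate, a filter on low means, all transcript probe sets, the mean of a gene's probe sets, the sample number as a block, another variance model, array weights and leaving out each array.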

Additional observations from a re-analysis of the deposited data

How the results depend on the processing

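Over 18 alternatives for each of 30 differences, save 17 for Spry2, which a filter on low means removed, 446 kept direction and side of the threshold, 63 lost the call, 8 gained it and 20 changed direction. Leaving out 1 array moved the number of members called from 3 to between 0 and 3 in the combination against anti-CD27 (0 without anti-CD27 replicate 1 or 2 or combination replicate 2 or 3), from 7 to between 5 and 7 in the combination against anti-PD-1/L1 (5 without combination replicate 2), and from 9 to between 6 and 8 in anti-CD27 against anti-PD-1/L1 (6 without anti-PD-1/L1 replicate 3 or anti-CD27 replicate 1 or 2). After quantile normalization 4 of the 10 members were called there, Dusp1, Dusp4, Spry1 and Spred1, of which Spred1 was not among those 9. With the positive control covariate, 1 member was called in the combination against anti-PD-1/L1, but 0 in anti-CD27 against anti-PD-1/L1. Over all 9 arrays, 96.5% of the variance of that covariate lies between the 3 groups. The cause of the lost calls was not tested.

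Differences that changed sign under the positive control covariate were, in the combination against anti-PD-1/L1, Dusp1 (-0.46), Dusp5 (-0.63), Dusp10 (-0.85), Spry1 (0.33) and Spry2 (0.80). In anti-CD27 against anti-PD-1/L1 they were Dusp2 (-0.68), Dusp5 (-0.78), Dusp6 (-0.19), Dusp10 (-0.65), Spry1 (0.74), Spry2 (0.67) and Spred1 (0.083), and in the combination against anti-CD27 Spry2 (0.13). None of these turned differences passed (adjusted p between 0.0929 and 0.911). The SE of Dusp1 in the combination against anti-PD-1/L1 was 0.58 with the covariate and 0.16 in the reported fit. Quantile normalization turned Dusp10 (-0.14) and Spred2 (-0.059) in the combination against anti-PD-1/L1, as well as Dusp10 (-0.0071) and Spred1 (0.31) in anti-CD27 against anti-PD-1/L1. Leaving out anti-CD27 replicate 2 or combination replicate 2 turned Spry2 (0.05 and 0.085) in the combination against anti-CD27, where leaving out 1 array gave -0.10 to 0.085. Leaving out combination replicate 2 turned Spred1 to -0.017 in the combination against anti-PD-1/L1, where the range was -0.017 to 0.078.

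Over all genes, 547 were called in the combination against anti-CD27, and 1653 with the 6 arrays alone, 2515 with array weights, 1223 without anti-PD-1/L1 replicate 1 and between 174 and 293 without 1 array of the groups compared. In the combination against anti-PD-1/L1 the calls went from 22255 to 1926 with the covariate, 11927 of fewer genes with the filter on low means and 42358 over all transcript probe sets, and in anti-CD27 against anti-PD-1/L1 from 21783 to 2428, 11466 and 42213. Over all genes, a pairing of arrays by the sample numbers in the titles was not borne out: 1 of 9 same-numbered pairs had deviations from the group means that correlated above 0.1 (range -0.20 to 0.16), and 0 of 9 arrays correlated best with their own number. This does not settle it for single genes. With the number as a replicate block, 376 genes and 3 members were called in the combination against anti-CD27, with Dusp6 (adjusted p = 0.0128) among them and Spry1 (adjusted p = 0.0924) not, and 8 members were called for the combination and 7 for anti-CD27 when set against anti-PD-1/L1.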

Other observations

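Of the 10 members, 4 (Dusp1, Dusp2, Dusp5 and Dusp6) had their lowest level within every group on the array whose title carries sample number 3, a pattern that 1.9% of all genes (586 of 30783) showed. On those arrays Dusp6 was at 6.66 in anti-CD27, 5.69 in the combination and 6.20 in anti-PD-1/L1. Dusp4 was instead lowest in every group on the array numbered 1, as were 4.71% of all genes. This was noticed after the values had been seen, and no label says that a number marks a shared day, litter or batch.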
